A study of Homo sapiens with 6 samples.

Results

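Histone genes were examined in the breast cancer line MDA-MB-436, which is triple-negative (TNBC) and carries a BRCA1 mutation, with and without silencing of MUC1. The genes were chosen by symbol. Rows beginning HIST1H, HIST2H, HIST3H or HIST4H were taken as replication-dependent (RD) histone genes, and rows beginning H2AF, H3F3 or H1F as variant histone genes. Of 37887 rows in the table, 121 matched, 33 of which were annotated pseudogenes and 1 an antisense RNA. The remaining 87 genes comprised 71 RD genes (6 of H1, 17 of H2A, 18 of H2B, 15 of H3 and 15 of H4) and 16 variants. No measured value chose a single gene, but the family itself was selected on lower fold changes seen earlier in these same libraries. Values of its members are therefore a description, and the counts of genes called support nothing on their own.

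All 6 libraries came from cells that stably carried a tetracycline-inducible MUC1 shRNA. Control cells (n = 3) received 0.1% DMSO as vehicle, and shMUC1 cells (n = 3) received 500 ng/ml doxycycline (DOX), which switches the shRNA on. The titles of the control samples speak of a control shRNA. Their treatment entries and the series design instead place vehicle-treated cells of the same MUC1 shRNA line there, and that reading was used. A control shRNA with DOX was not analysed here, so DOX itself and MUC1 silencing cannot be told apart. The labels give neither the length of treatment nor whether the line was a clone or a pool. Libraries held 18678307 to 27825546 counts. MUC1 had 93, 84 and 102 counts in control against 72, 51 and 34 under DOX, and fell by 0.84 on the log2 scale (edgeR quasi-likelihood test, adjusted p = 0.00119). The mesenchymal markers VIM (718 CPM in control) and ZEB1 (35.1 CPM) were present, SPARC was low (1.55 CPM), and ESR1 and PGR were close to 0 (0.196 and 0.0806 CPM), while ERBB2 was at 44.7 CPM. CPM here means counts per 1000000 counts of a library scaled by the trimmed mean of M values (TMM). Of the markers of other cells, CD3E had no count, and PTPRC and PECAM1 reached at most 0.932 and 1.64 CPM in any library. In shMUC1 libraries VIM (log2 fold change -0.78), ZEB1 (-0.97), SPARC (-1.97), ERBB2 (-0.20) and PECAM1 (-1.94) were called lower and PTPRC (1.59) higher, and their part in the histone values was not tested.

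Histones are the proteins around which DNA is wound. Pairs of H2A, H2B, H3 and H4 form the core of the nucleosome, and H1 binds the linker DNA between nucleosomes. RD histone genes lie in clusters, have no introns in their coding part and are transcribed mainly in S phase, when new DNA must be packaged. Their mRNAs end in a conserved stem-loop that is bound by SLBP and cut with the help of U7 RNA, in place of a poly(A) tail, although several RD genes also give polyadenylated transcripts. Variant genes stand alone, give ordinary polyadenylated mRNA in every phase of the cell cycle, and encode proteins such as H2A.Z, H2A.X, macroH2A, H3.3 and the replacement linker histones. The libraries were made with a poly(A) mRNA kit, so the counts of RD genes are those of the transcripts that this kit retained.

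The stem-loop is shown first, because it is the element that separates the 2 classes of transcript. A 16-base stem-loop was present in an annotated transcript (GENCODE 29) of 32 of 71 RD genes, while the models of another 33 covered the coding part alone and could not hold it. Among variants, it was found in 1 of 16, H2AFX, which has both kinds of transcript. The forms found are given below with the number of genes that carry each, the stem in capitals and the loop in lower case.
H2A, H2B and H3 form (17 genes, HIST2H2BE and HIST1H2AC among them): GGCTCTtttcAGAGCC
H2B and H3 form with another loop (5 genes, HIST1H2BC, HIST1H2BD and HIST1H3G among them): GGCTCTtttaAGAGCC
H4 form (5 genes, HIST1H4B and HIST1H4H among them): GGCCCTtttcAGGGCC
H4 form with another loop (3 genes, HIST1H4I, HIST2H4A and HIST2H4B): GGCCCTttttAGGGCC
H2AFX: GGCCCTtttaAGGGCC
HIST1H3E: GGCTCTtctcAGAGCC
HIST1H2AG: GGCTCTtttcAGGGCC

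RefSeq gives a promoter window of 300 bases (250 before and 50 after the start, GRCh38.p14) for 75 of the 87 genes. These windows were searched on both strands for 4 motifs: the TATA box (TATAAA), the CCAAT box (CCAAT), the octamer bound by POU2F1 (ATTTGCAT) and the H1 box (AAACACA). The TATA box was present in 67.2% of 61 RD windows and 28.6% of 14 variant windows, against 12% of all 27305 RefSeq windows. The octamer was present in 68.8% of H2A and 69.2% of H2B windows and in 1.8% of all windows, and the H1 box in 6 of 6 H1 windows and 5.76% of all windows. CCAAT was found in every H1, H2A, H2B and H3 window but in only 3 of 13 H4 windows, against 35.7% of all windows. A match is a description of the letters and not a bound site. The windows are not all separate sequences. HIST1H3D and HIST1H2AD have the same window. Windows of H2A and H2B genes that lie head to head, such as HIST1H2AJ and HIST1H2BM, overlap and were counted under both types. The 5 windows shown belong to the gene with the greatest rise (HIST1H4I), the gene with the greatest fall among well counted members (HIST1H1D), the H2A gene of a divergent pair whose H2B partner was lower (HIST1H2AC), the H2B gene of the divergent pair that moved in opposite directions (HIST1H2BK), and the gene with the largest coefficient of variation between replicates among members averaging 100 counts or more (HIST2H2BE). Motif matches are in capitals, and matches on either strand or matches that overlap are not told apart by the letters.
HIST1H4I (chr6:27139032-27139331, + strand): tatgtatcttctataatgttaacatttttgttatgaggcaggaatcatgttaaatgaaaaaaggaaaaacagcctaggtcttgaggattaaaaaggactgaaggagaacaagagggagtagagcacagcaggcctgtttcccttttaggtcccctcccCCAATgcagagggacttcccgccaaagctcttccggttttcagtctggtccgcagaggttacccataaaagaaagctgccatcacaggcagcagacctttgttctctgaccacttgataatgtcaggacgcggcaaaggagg
HIST1H1D (chr6:26234938-26235237, - strand): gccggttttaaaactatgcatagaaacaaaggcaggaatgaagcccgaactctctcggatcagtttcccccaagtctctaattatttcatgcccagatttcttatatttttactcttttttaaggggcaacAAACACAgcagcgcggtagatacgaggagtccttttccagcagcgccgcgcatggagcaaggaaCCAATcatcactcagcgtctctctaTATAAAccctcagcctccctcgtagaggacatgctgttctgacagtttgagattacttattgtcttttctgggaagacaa
HIST1H2AC (chr6:26123922-26124221, + strand): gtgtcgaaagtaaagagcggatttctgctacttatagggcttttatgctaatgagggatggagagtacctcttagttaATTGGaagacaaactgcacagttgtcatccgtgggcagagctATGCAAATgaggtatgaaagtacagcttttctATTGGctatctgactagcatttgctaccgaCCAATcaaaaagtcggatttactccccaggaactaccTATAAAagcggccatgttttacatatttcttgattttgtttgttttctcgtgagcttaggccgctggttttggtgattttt
HIST1H2BK (chr6:27146809-27147108, - strand): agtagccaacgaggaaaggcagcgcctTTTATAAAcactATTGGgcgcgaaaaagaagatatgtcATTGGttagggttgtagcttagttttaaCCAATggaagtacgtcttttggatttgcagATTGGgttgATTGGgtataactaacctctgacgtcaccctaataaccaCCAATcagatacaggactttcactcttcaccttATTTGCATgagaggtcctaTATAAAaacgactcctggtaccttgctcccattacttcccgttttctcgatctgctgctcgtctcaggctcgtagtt
HIST2H2BE (chr1:149886633-149886932, - strand): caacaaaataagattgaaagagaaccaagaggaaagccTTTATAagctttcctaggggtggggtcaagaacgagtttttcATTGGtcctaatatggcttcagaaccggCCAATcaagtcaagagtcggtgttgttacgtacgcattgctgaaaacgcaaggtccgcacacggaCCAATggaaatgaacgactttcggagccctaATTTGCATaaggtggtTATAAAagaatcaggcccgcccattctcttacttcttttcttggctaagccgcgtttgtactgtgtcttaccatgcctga
The window of HIST1H4I held a single CCAAT box, and that of HIST1H1D held 1 H1 box, 1 CCAAT box and 1 TATA box. The windows of HIST1H2AC, HIST1H2BK and HIST2H2BE held 5, 10 and 6 matches, the octamer among them in each.

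To determine how the output of the whole family differed, the counts of all members of a class were summed in each library. RD genes together made up 3180, 3101 and 3030 CPM in control and 2448, 2561 and 2530 CPM in shMUC1 libraries. The means were 3104 ± 75.4 and 2513 ± 58.8 CPM (SD, n = 3), a log2 ratio of -0.30, and the groups did not overlap. Variant genes together made up 1244, 1263 and 1228 CPM in control and 1093, 1107 and 1090 CPM in shMUC1 libraries (1245 ± 17.3 against 1097 ± 9.12 CPM, SD, n = 3), a log2 ratio of -0.18. Both classes were thus lower in every shMUC1 library than in any control library. In bulk RNA, fewer cells in S phase and less histone RNA per cell cannot be told apart.

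**Figure D1:**
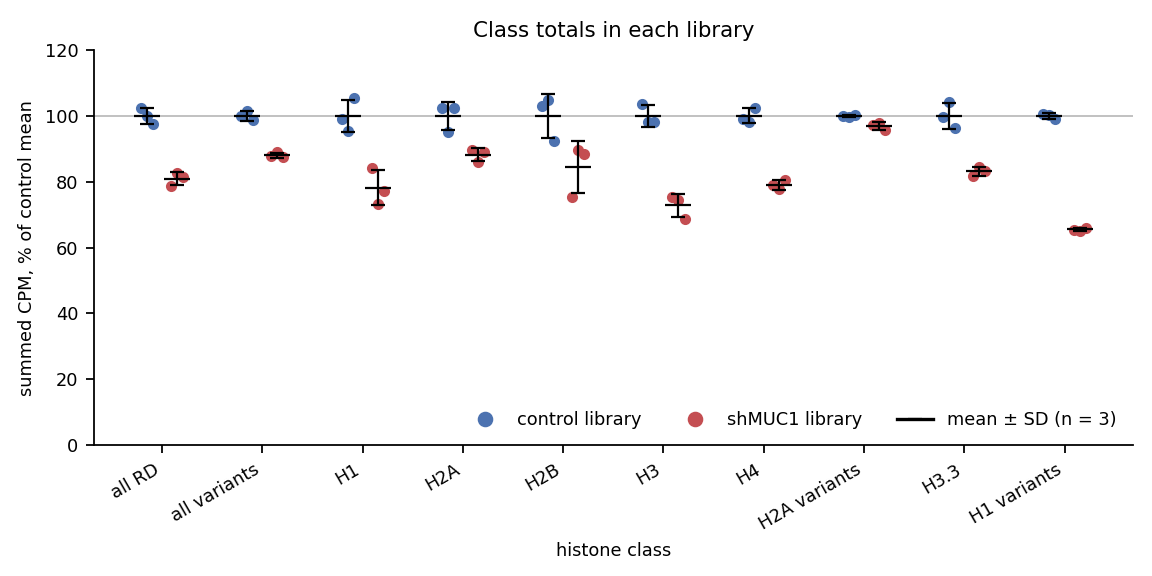
Summed CPM of each histone class in each library, as a percentage of the control mean (y axis, starting at 0), for the RD and variant classes and their types (x axis). Points are libraries, horizontal lines the means and bars the SD (n = 3); in all 10 classes the shMUC1 libraries lie below the control libraries, from 65.1 to 66.1% for the H1 variants up to 95.7 to 97.8% for the H2A variants.

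By type, H3 showed the greatest difference among RD classes, from 878 ± 28.4 to 639 ± 31.1 CPM (SD, n = 3; log2 ratio -0.46). H1 went from 139 ± 6.94 to 109 ± 7.52 CPM (log2 ratio -0.35), and H4 from 362 ± 8.25 to 287 ± 5.46 CPM (log2 ratio -0.34). H2B went from 1143 ± 76.9 to 966 ± 89.8 CPM (log2 ratio -0.24), with the widest spread of any class, and H2A from 581 ± 24.9 to 512 ± 11.4 CPM (log2 ratio -0.18). Much of a class total can come from 1 gene. HIST1H2AC held 38.9% of H2A counts, HIST1H1E 43.7% of H1 counts and HIST2H2BE 22.2% of H2B counts. Without these genes the log2 ratios were -0.29 for H2A, -0.45 for H1 and -0.31 for H2B.

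The variant types differed more from each other than the RD types did. Replacement linker histones (H1F0, H1FX and 2 genes scarcely counted) went from 156 ± 1.25 to 102 ± 0.791 CPM (SD, n = 3; log2 ratio -0.61), the H3.3 genes from 443 ± 17.8 to 369 ± 5.69 CPM (log2 ratio -0.27), and the H2A variants from 645 ± 1.47 to 625 ± 7.17 CPM (log2 ratio -0.04). The H3.3 difference rested on H3F3B, which held 76.7% of the counts. Without it the log2 ratio was 0.03. Within a library, where scaling between libraries plays no part, there were 2.56, 2.46 and 2.47 RD counts for each variant count in control and 2.24, 2.31 and 2.32 in shMUC1 libraries. The ratio of the means was 0.919 and the groups did not overlap. The ratio of canonical H3 to H3.3 counts was also lower in every shMUC1 library (1.98 ± 0.103 against 1.73 ± 0.0932, SD, n = 3), as was that of canonical H2A to H2A variants (0.901 ± 0.0372 against 0.820 ± 0.0243). The ratio of canonical to replacement H1 ran the other way, from 0.890 ± 0.0508 to 1.06 ± 0.0737.

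Gene by gene, 71 of the 87 members passed the filter on low counts and were tested, 60 RD genes and 11 variants. Of the 60 RD genes, 41 were called lower and 2 higher in shMUC1 cells at an adjusted p under 0.05 (edgeR), and their median log2 fold change was -0.39. Of the 11 variants, 4 were called lower and 2 higher, with a median of -0.10. For comparison, 23.6% of all 15355 genes tested were called lower and 25.2% higher, and their median log2 fold change was near 0 (0.00058). When a fitted fold change over 2 was also required, which can differ slightly from the ratio of mean CPM, 4 RD genes were lower (HIST1H1A, HIST1H1D, HIST1H3A and HIST1H2BB) and 1 was higher (HIST1H4I), where 3.74% of all genes were lower and 2.21% higher. All 3 shMUC1 libraries lay below all 3 control libraries in 41 RD genes and 5 variants, and above them in 2 RD genes and 1 variant. The same was true of 26.8% and 28.1% of all genes tested. The family was selected on this contrast, so nothing is read from these shares.

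**Figure D2:**
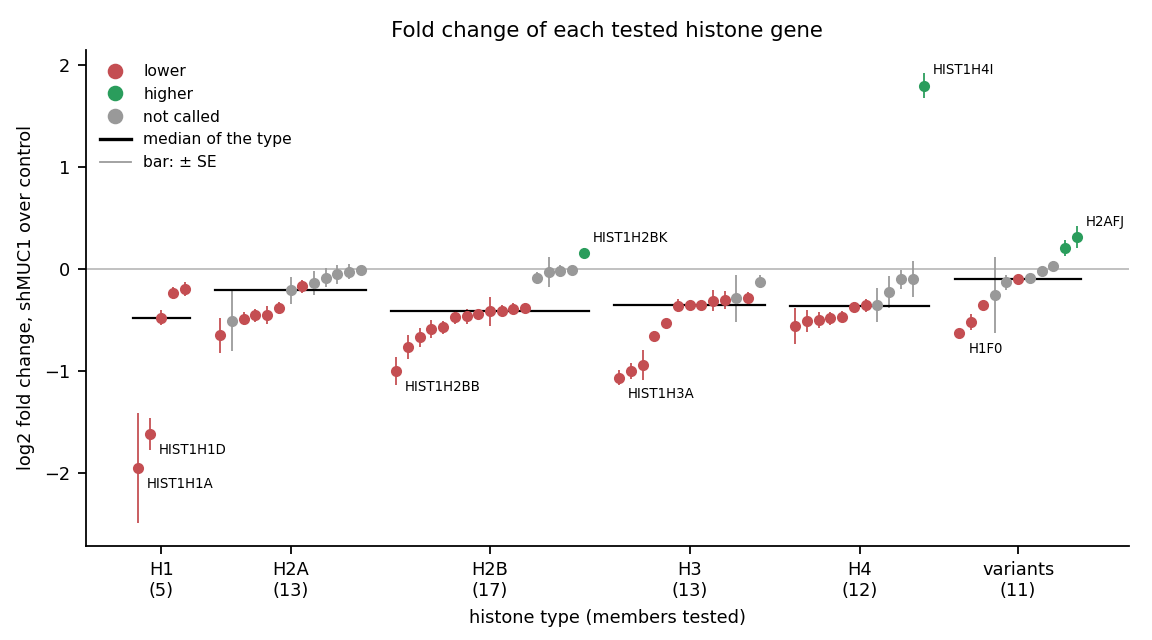
Log2 fold change of shMUC1 over control (y axis) for each of the 71 tested histone genes, sorted within type (x axis, number tested in brackets). Points are coloured by call, bars are the SE and black lines the median of each type, from -0.48 for H1 to -0.10 for the variants; HIST1H4I stands alone at 1.798.

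The remaining 16 members did not pass the filter, and none exceeded 8 counts in any library. Among them were the testis genes HIST1H1T, HIST1H2AA, HIST1H2BA and H1FNT, the oocyte linker histone H1FOO and the 3 copies of H2AFB. A count of 0 in every library was found for 6 genes (H1FOO, HIST1H2AK, HIST1H2BA, HIST1H3D, HIST1H4F and HIST1H4L). If each count is an independent event, a count of 0 allows up to 3 counts, or 0.161 CPM in the shallowest library. Of values from 1 to 20, 69.9% were even, so the true floor may be higher. HIST1H3D and HIST1H2AD share their annotated sequence with an overlapping transcript, and HIST1H2AM with HIST1H3J, and their values are uncertain for that reason. The model of HIST1H2BN overlaps HIST1H2AK on the opposite strand and HIST1H2AL on the same strand. The strand setting used in counting is not given, and the values of HIST1H2BN, HIST1H2AK and HIST1H2AL are also uncertain.

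Of the 6 RD linker histone genes, which encode the main H1 subtypes, 5 were tested and all 5 were called lower. The share of all genes tested was 23.6%, and nothing is read from the H1 count in a family selected on this contrast. HIST1H1D had 172, 220 and 238 counts in control against 70, 86 and 48 in shMUC1 libraries. This was 8.70 ± 0.744 against 2.82 ± 0.452 CPM (SD, n = 3), a log2 fold change of -1.62 ± 0.16 (SE), and no shMUC1 library came near the control range. HIST1H1A was scarcely counted, with 22, 26 and 30 counts in control and 16, 0 and 4 in shMUC1 libraries (log2 fold change -1.96 ± 0.54, SE). The other H1 genes were counted several times more often and differed less. HIST1H1B had 35.4, 33.4 and 39.1 CPM in control and 27.9, 23.8 and 25.6 CPM in shMUC1 libraries, with a log2 fold change of -0.48. HIST1H1E, the H1 gene with the most counts, had 59.0, 55.1 and 61.6 CPM against 53.1, 46.8 and 49.5 CPM, with a log2 fold change of -0.24. In both genes the groups were separate. HIST1H1C had 34.6, 33.8 and 35.2 CPM against 32.6, 28.0 and 29.6 CPM (log2 fold change -0.20), and its call was lost without shMUC1 replicate 2 (-0.14) or replicate 3 (-0.18).

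Canonical H2A divided into genes that were lower and genes whose levels overlapped. Of 13 tested, 6 were called lower, none higher and 7 not called (median log2 fold change -0.21). Among all genes tested, 23.6% were called lower and 25.2% higher, and nothing is read from the H2A count in a family selected on this contrast. HIST1H2AC, the H2A gene with the most counts, had 225, 205 and 212 CPM in control and 205, 209 and 224 CPM in shMUC1 libraries, and the groups overlapped almost completely (log2 fold change -0.01 ± 0.04, SE). HIST2H2AC had 84.8, 82.8 and 93.3 CPM against 72.7, 61.8 and 65.1 CPM (log2 fold change -0.39), with no overlap. Per kilobase of annotated exon, HIST2H2AC stood at 223 CPM and HIST1H2AC at 128 CPM in control, so the order by counts is not that by length. HIST1H2AE, with 50.5, 51.1 and 54.4 CPM in control, had 35.0, 36.8 and 39.7 CPM in shMUC1 libraries (log2 fold change -0.49). HIST1H2AG varied within both groups, from 37.9 to 53.8 CPM in control and from 37.6 to 54.6 CPM in shMUC1 libraries (log2 fold change -0.05). Its sign changed to 0.06 without control replicate 1 and to 0.05 without shMUC1 replicate 3, and it was called lower without shMUC1 replicate 1 (-0.23). The other 9 tested H2A genes ran from -0.65 to -0.03, and 4 of them were called lower. HIST2H2AA3 with HIST2H2AA4 and HIST1H2AI with HIST1H2AJ are near-identical pairs whose separate values are uncertain.

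H2B held the RD gene with the most counts and the widest spread. HIST2H2BE had 6014, 7251 and 3750 counts in control and 4049, 7540 and 4900 in shMUC1 libraries. In CPM these were 274, 298 and 145 against 147, 293 and 263, so that control replicate 3 and shMUC1 replicate 1 stood at about the same low level and the other libraries at the same high level. The log2 fold change was -0.03 ± 0.15 (SE). It became -0.31 and was called lower without control replicate 3, and 0.23 without shMUC1 replicate 1. Its coefficient of variation was 34.4% in control and 33.0% in shMUC1 libraries. HIST1H2BC had 159, 156 and 160 CPM in control and 114, 111 and 124 CPM in shMUC1 libraries (log2 fold change -0.45), and HIST2H2BF had 135, 130 and 131 CPM against 94.1, 107 and 102 CPM (-0.38), both with wide gaps between groups. HIST1H2BD, by contrast, had 93.9, 94.1 and 96.6 CPM against 93.7, 93.9 and 94.3 CPM, levels that lay on top of each other (log2 fold change -0.01 ± 0.04, SE).

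Across H2B, 12 of 17 tested genes were called lower and 1 higher (median log2 fold change -0.42). The shares of all genes tested were 23.6% and 25.2%, and nothing is read from the H2B count in a family selected on this contrast. HIST1H2BB had 239, 351 and 400 counts in control and 211, 138 and 139 in shMUC1 libraries, or 13.6 ± 2.398 against 6.82 ± 1.27 CPM (SD, n = 3), a level 0.502 of that in control, and its groups were separate in CPM. HIST1H2BK was the single H2B gene called higher. It had 77.4, 72.5 and 83.1 CPM in control and 84.5, 86.1 and 88.3 CPM in shMUC1 libraries (log2 fold change 0.15), and the call was lost without control replicate 2 (0.10). HIST1H2BK shares most of its sequence with H2BFS, so that its value is uncertain. The other 11 tested H2B genes ran from -0.77 to -0.02, with 9 called lower. HIST1H2BJ and HIST1H2BO were the 2 not called.

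**Figure D3:**
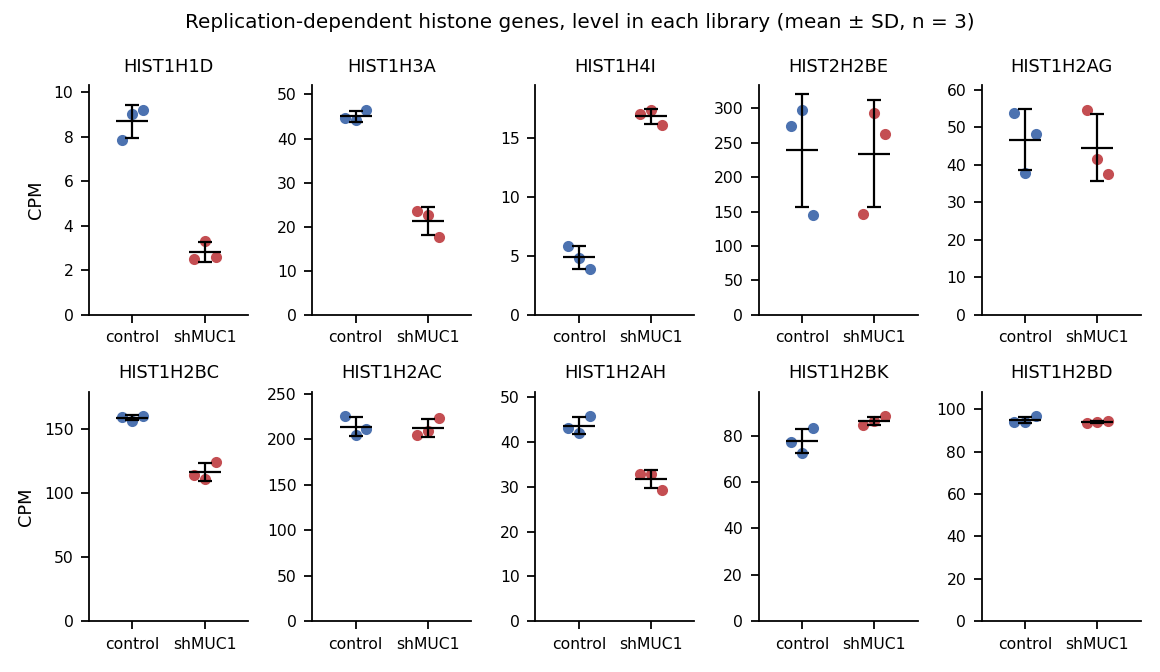
Level in CPM (y axis, each panel starting at 0) of 10 RD histone genes in the 3 control and 3 shMUC1 libraries (x axis); points are libraries and bars the mean ± SD (n = 3). HIST1H1D, HIST1H3A, HIST1H2BC and HIST1H2AH are lower in every shMUC1 library and HIST1H4I and HIST1H2BK higher in every one, whereas HIST2H2BE, HIST1H2AG, HIST1H2AC and HIST1H2BD overlap.

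H3 was the core type with the greatest share of tested genes called lower (84.6%, against 23.6% of all genes tested). The family was selected on this contrast, so nothing is read from this rank. Of 13 H3 genes tested, 11 were called lower and none higher (median log2 fold change -0.36), and all 13 had a negative sign. HIST1H3A had 978, 1075 and 1201 counts in control and 652, 582 and 330 in shMUC1 libraries, or 45.1 ± 1.25 against 21.3 ± 3.13 CPM (SD, n = 3), a log2 fold change of -1.07 ± 0.08 (SE). HIST1H3I had 36.0, 41.7 and 41.6 CPM against 19.9, 21.7 and 17.7 CPM, a level 0.498 of that in control, and HIST1H3J 79.1, 79.3 and 79.9 CPM against 52.8, 52.0 and 45.5 CPM (-0.66). All 3 encode canonical H3. HIST1H3A lies near the other end of the HIST1 cluster from HIST1H3I and HIST1H3J. HIST1H3G, the H3 gene with the most counts, had 233, 197 and 185 CPM in control and 169, 159 and 152 CPM in shMUC1 libraries (-0.36). HIST1H3C had 170, 176 and 165 CPM against 118, 118 and 116 CPM (-0.54), and HIST1H3B had 150, 142 and 142 CPM against 118, 118 and 101 CPM (-0.35). No control library was reached by a shMUC1 library in any of these 6 genes. Per kilobase of annotated exon, HIST1H3C (415 CPM) and HIST1H3B (351 CPM) stood above HIST1H3G (85.2 CPM) in control, whose model is much longer. The other 7 tested H3 genes ran from -0.94 (HIST1H3E) to -0.13 (HIST2H3D), with 5 called lower. HIST2H3A, HIST2H3C, HIST2H3D and HIST2H3PS2 are near-identical copies, and their separate values are uncertain.

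H4 held the only member called higher with a fitted fold change over 2. HIST1H4I had 129, 118 and 101 counts in control against 470, 448 and 300 in shMUC1 libraries. This was 4.88 ± 0.987 against 16.8 ± 0.651 CPM (SD, n = 3), a 3.45-fold difference and a log2 fold change of 1.798 ± 0.13 (SE), with no overlap. HIST1H4I carries the H4 stem-loop shown above, at chr6:27138588-27139881 on the + strand (GRCh38). Its annotated model is 1294 bases long for a coding part of 309 bases, reaches 694 bases upstream of the RefSeq start and ends 212 bases past the stem-loop. Counts per gene do not show in which part of this model the reads lay. The other 11 tested H4 genes all had a negative sign, and 7 of them were called lower. Among all genes tested, 23.6% were called lower, and nothing is read from the H4 count in a family selected on this contrast.

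Among these, HIST1H4H had 100.03, 99.1 and 94.9 CPM in control and 74.6, 71.5 and 81.4 CPM in shMUC1 libraries (log2 fold change -0.37), and HIST1H4B had 70.1, 72.01 and 77.8 CPM against 52.3, 53.9 and 52.8 CPM (-0.47). HIST1H4C had 59.3, 50.8 and 62.1 CPM against 43.9, 37.3 and 41.7 CPM (-0.49), and HIST2H4A had 44.2, 47.1 and 43.1 CPM against 34.0, 35.8 and 35.2 CPM (-0.36). The groups were separate in all 4 genes, although HIST2H4A shares its sequence with HIST2H4B and is uncertain. The canonical H4 genes encode the same protein, and the 16.8 CPM of HIST1H4I in shMUC1 cells stood beside 287 CPM for all H4 genes. The other 7 tested H4 genes ran from -0.56 (HIST1H4A) to -0.10 (HIST4H4), with 3 called lower.

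Among the variants, the replacement linker histones were the lowest relative to control. H1F0, which accumulates in resting and differentiated cells, had 124, 129 and 122 CPM in control and 81.5, 78.6 and 80.7 CPM in shMUC1 libraries (log2 fold change -0.63 ± 0.04, SE). H1FX had 33.3, 28.3 and 33.4 CPM against 20.6, 23.2 and 22.6 CPM (-0.52 ± 0.08, SE), without overlap. An antisense gene, H1FX-AS1, overlaps H1FX and had at most 28 counts in any library.

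H3.3, which is deposited outside replication, is encoded by 2 main genes that differed from each other. H3F3B had 346, 373 and 330 CPM in control and 266, 281 and 273 CPM in shMUC1 libraries (log2 fold change -0.36 ± 0.04, SE), with no overlap. H3F3A had 94.2, 87.5 and 95.8 CPM against 95.7, 92.9 and 95.1 CPM (0.03 ± 0.04, SE), and the groups overlapped. H3F3C had 14 to 38 counts in a library and was not called (-0.26).

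The H2A variants moved little. H2AFZ, which encodes H2A.Z and marks promoters, had 192, 198 and 202 CPM in control and 185, 185 and 183 CPM in shMUC1 libraries (log2 fold change -0.10). It was called lower, but lost the call in 3 of 14 alternatives, among them those without shMUC1 replicate 1 (-0.10) or replicate 3 (-0.09). H2AFV, the second H2A.Z gene, had 252, 261 and 257 CPM against 255, 259 and 246 CPM (-0.02 ± 0.03, SE) and overlapped. H2AFX, whose product is phosphorylated at DNA breaks, had 31.7, 29.6 and 30.7 CPM against 26.6, 30.1 and 27.2 CPM (-0.13 ± 0.07, SE), and was not called. Of the macroH2A genes, H2AFY had 128, 122 and 118 CPM against 116, 113 and 117 CPM (-0.09) and was called lower only without control replicate 3 (-0.13) and under 2 of the other alternatives. H2AFY2 had 27.2, 21.8 and 23.4 CPM against 28.7, 27.7 and 26.6 CPM (0.20), overlapped, and lost its call of higher in 7 of 14 alternatives, among them without control replicates 2 (0.14) and 3 (0.17) and without shMUC1 replicates 1 (0.18) and 2 (0.20). H2AFJ had 13.1, 10.6 and 15.9 CPM against 16.6, 16.2 and 16.4 CPM (0.31), and its call of higher was lost without control replicate 2 (0.17) or shMUC1 replicate 1 (0.30). Control libraries ranged over 5.47 CPM for H2AFY2 and 5.32 CPM for H2AFJ, which was more than the 3.53 and 3.19 CPM between the group means.

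**Figure D4:**
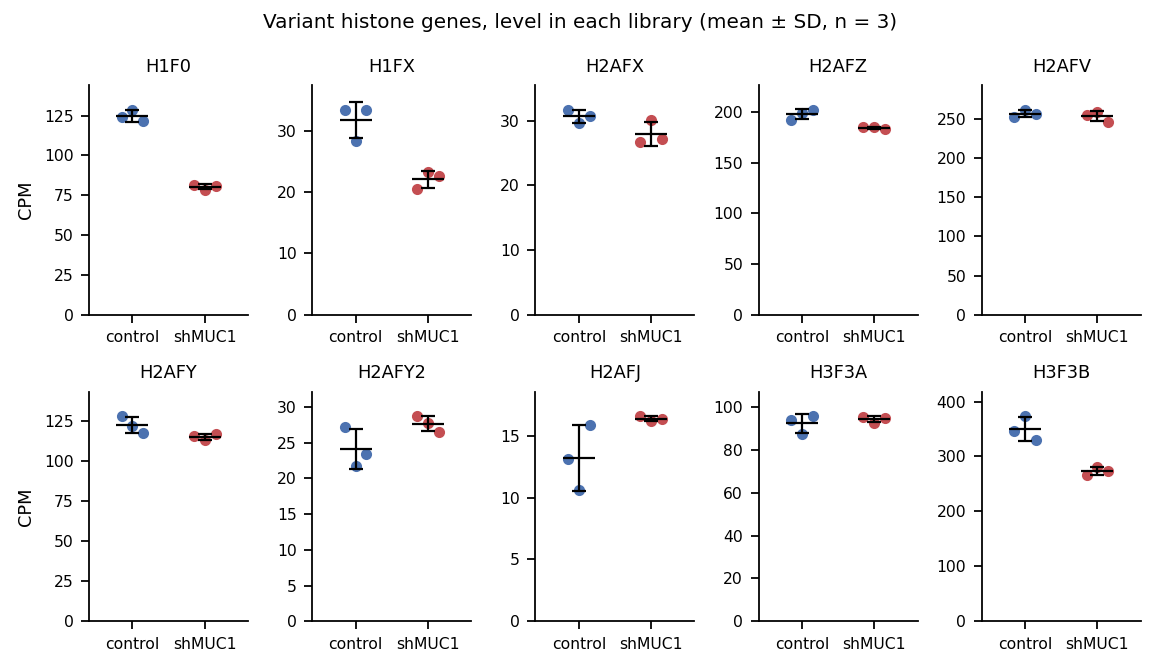
Level in CPM (y axis, each panel starting at 0) of the 10 variant histone genes that averaged 100 counts or more, in the 3 control and 3 shMUC1 libraries (x axis); points are libraries and bars the mean ± SD (n = 3). H1F0, H1FX and H3F3B lie clearly below control, while H2AFV, H2AFX, H2AFY2 and H3F3A overlap.

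The position of the RD genes was examined next. The HIST1 cluster on chromosome 6 was parted into 4 blocks at gaps of more than 200000 bases. The second block (chr6:26017085-26285638, from HIST1H1A to HIST1H4H) held 32 members, and of 27 tested 25 were called lower and none higher (median log2 fold change -0.50). The members not called there were HIST1H2AC and HIST1H2BD. The third block (chr6:27125897-27147515, from HIST1H2BJ to HIST1H2AH) held 5 members, with a median of -0.02. HIST1H2BJ and HIST1H2AG were not called, HIST1H4I and HIST1H2BK were called higher, and HIST1H2AH alone was lower (43.2, 42.0 and 45.7 CPM in control against 32.9, 32.8 and 29.3 CPM). Both RD genes called higher thus came from this block. The last block (chr6:27807444-27893843, from HIST1H2BL to HIST1H2BO) held 16 members, of which 13 were tested, 8 were lower and none was higher (-0.41). In the first block, HIST1H2AA and HIST1H2BA were scarcely counted. The blocks were compared after their values were seen and no test was made. Of all genes tested, 23.6% were called lower and 25.2% higher. The family was selected on this contrast, so nothing is read from the counts called in a block or cluster. Outside HIST1, 6 of 12 HIST2 genes were called lower (median -0.26), 1 of 2 tested HIST3 genes was lower, and HIST4H4 was not called.

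**Figure D5:**
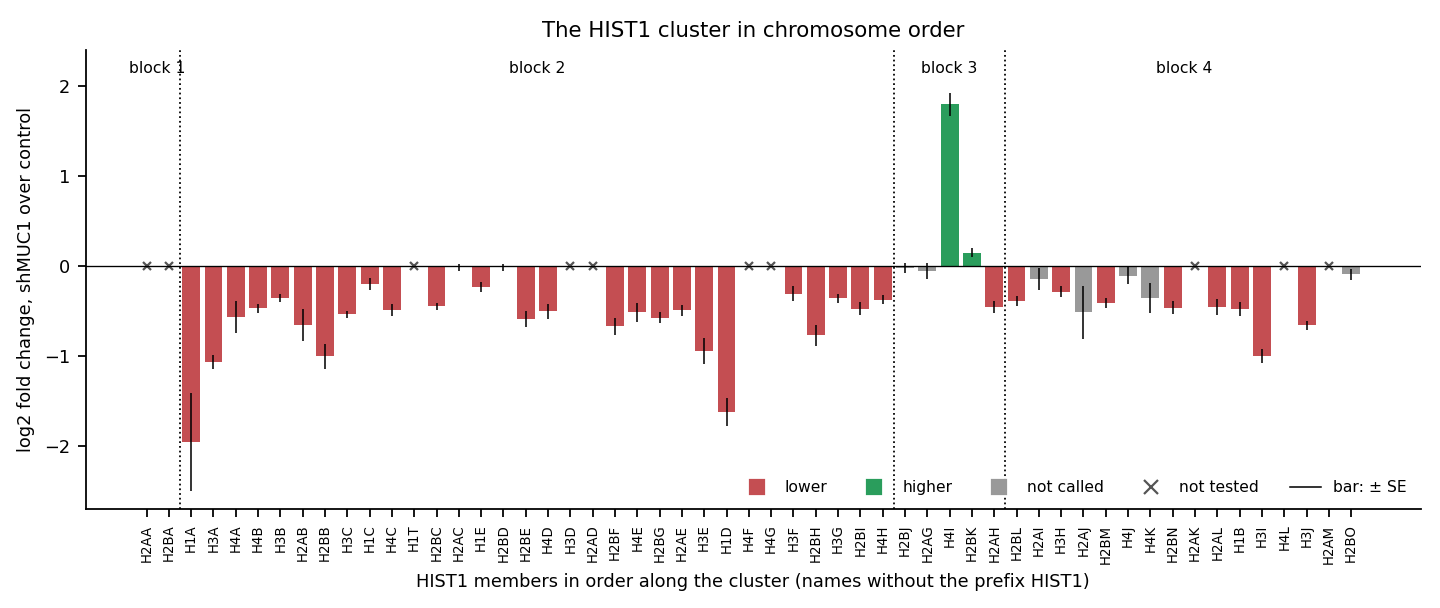
Log2 fold change of shMUC1 over control (y axis, bars ± SE) for the HIST1 genes in their order along the cluster (x axis, equal spacing, not distance), coloured by call, with crosses for genes not tested and dotted lines between blocks. Every tested gene of the second and last blocks has a log2 fold change below 0, and both genes called higher stand in the third.

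H2A and H2B genes often lie head to head and share the bases between their starts. There were 11 such pairs with starts at most 500 bases apart, and both genes were tested in 8. Both genes were called lower in 1 pair, HIST1H2BG with HIST1H2AE (-0.58 and -0.49). In 5 pairs 1 gene was lower and the other not called, as for HIST1H2BC (-0.45) and HIST1H2AC (-0.01), which start 219 bases apart within the window printed above. In HIST2H2BE (-0.03) and HIST2H2AC (-0.39), 323 bases apart, the partner of the widely varying gene was lower without overlap. The pair HIST1H2BK (0.15) and HIST1H2AH (-0.46), 331 bases apart, was called in opposite directions. In HIST1H2BJ and HIST1H2AG neither was called. Calls thus differed within pairs, but a difference in call is not a tested difference. HIST1H2AJ (-0.51, mean of 38.2 counts) was not called although it fell more than its partner HIST1H2BM (-0.41), which was called lower. HIST1H2AI, HIST1H2AJ and HIST1H2BK have near-identical copies and uncertain values. Among all genes tested, 23.6% were called lower and 25.2% higher, and nothing is read from the counts of pairs.

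Annotated models of RD genes (GENCODE 29) differ in what they cover. The release that the authors counted on is not given in the sources used here. Of the 33 RD genes whose model holds the coding part alone, 25 were tested and 18 were called lower (median log2 fold change -0.46). Of the 21 whose model reaches 300 bases or more past the stem-loop, where a polyadenylated transcript would run, all were tested and 15 were called lower (median -0.36). Another 11 models hold the stem-loop and end sooner after it, with 10 tested and 5 lower (median -0.19), and the last 6 hold more than the coding part but no stem-loop, with 4 tested and 3 lower (median -0.36). Of the 16 RD genes with a near-identical copy, 13 were tested, 4 were lower and 1 was higher (median -0.23). Of the 55 without one, 47 were tested, 37 were lower and 1 was higher (median -0.45). Read sharing between copies can move their counts, and its part was not tested. For comparison, 23.6% of all genes tested were called lower and 25.2% higher. Nothing is read from the counts called in each kind of model, because the family was selected on this contrast.

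Genes that make, bind or process histone RNA and protein are not members of the family and were taken from 5 lists. For the processing and decay of histone mRNA, 19 of 20 listed genes in the table were tested, of which 8 were higher and 3 lower (median log2 fold change -0.01), where 25.2% of all genes tested were higher and 23.6% lower. Their summed level ran from 1368 to 1381 CPM in control and from 1423 to 1443 CPM in shMUC1 libraries, with no overlap. SLBP, the stem-loop binding protein, had 107, 107 and 111 CPM in control and 123, 123 and 128 CPM in shMUC1 libraries, and rose by 0.20 on the log2 scale (edgeR, adjusted p = 8.05e-05). ZNF473 (0.44, adjusted p = 7.53e-05) and LSM10 (0.34, adjusted p = 2.97e-05), both of the U7 machinery, and MIF4GD (0.41, adjusted p = 0.00214), a partner of SLBP in translation, were also higher, each without overlap (edgeR). Of 12 genes of histone gene transcription, 3 were higher (25%, against 25.2% of all genes) and 1 lower (8.33%, against 23.6%). Their median was 0.06. The summed level, from 648 to 654 CPM in control and from 664 to 695 CPM in shMUC1 libraries, did not overlap either. NPAT, the coactivator of histone loci, had 54.6, 54.8 and 51.8 CPM against 49.8, 48.9 and 52.4 CPM and was not called (log2 fold change -0.09; edgeR, adjusted p = 0.163). CCNE1 (0.23, adjusted p = 0.00136) and CDC25A (0.34, adjusted p = 2.42e-07), which drive entry into S phase, were higher. E2F1 (0.14, adjusted p = 0.0363) was called higher, with an adjusted p (edgeR or DESeq2 or limma) between 0.0208 and 0.176 in 14 alternatives, 7 of which lost the call, among them those without control replicate 1 (0.14) or 2 (0.10) and without shMUC1 replicate 1 (0.12) or 2 (0.15).

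Of 30 histone chaperones, which carry histones to DNA, 8 were higher (26.7%, against 25.2% of all genes) and 11 lower (36.7%, against 23.6%), with a median of -0.03. Their summed level ran from 5567 to 5703 CPM in control and from 5314 to 5393 CPM in shMUC1 libraries, with no overlap. Most of this difference came from 1 gene, NPM1, at a mean of 1990.5 CPM in control and 1748.4 CPM in shMUC1 libraries. The sum therefore does not show a fall of the chaperones as a group. ASF1B, a chaperone of new H3 and H4, was higher (0.61; edgeR, adjusted p = 7.67e-10), at 28.1, 26.5 and 28.8 CPM in control and 43.1, 41.2 and 42.9 CPM in shMUC1 libraries. ANP32E, which removes H2A.Z (-0.54, adjusted p = 5.93e-17), and TONSL, which reads new histones behind the fork (-0.51, adjusted p = 1.1e-10), were lower (edgeR). Of 38 genes of DNA replication and S phase, 15 were higher (39.5%, against 25.2% of all genes) and 8 lower (21.1%, against 23.6%). Their median was 0.09. Their summed level ran from 4566 to 4618 CPM in control and from 4577 to 4620 CPM in shMUC1 libraries, which overlapped. GINS1 (0.53, adjusted p = 1.81e-11) and RPA3 (0.48, adjusted p = 1.99e-08) were higher and POLA2 (-0.56, adjusted p = 0.0061) lower (edgeR).

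Because RD histone mRNA mostly lacks a poly(A) tail and the kit selects for that tail, other RNAs without tails were set beside it. Of 27 such genes in the table, 10 were at 0 in every library and 14 were tested. Of these 14, 4 were lower (28.6%, against 23.6% of all genes) and 2 higher (14.3%, against 25.2%). Their median log2 fold change was -0.15. The summed level of all 27 ran from 434 to 620 CPM in control and from 399 to 464 CPM in shMUC1 libraries, and the ranges overlapped. Most of this sum was RN7SL1, the RNA of the signal recognition particle, at 338 to 510 CPM in control and 327 to 375 CPM in shMUC1 libraries. Without it, a choice made after seeing the data, the sum ran from 95.9 to 111 CPM in control and from 71.4 to 89.5 CPM in shMUC1 libraries, with no overlap. SNORD13 was lower (-2.15; edgeR, adjusted p = 4.88e-19), at 25.3, 30.9 and 28.0 CPM in control and 6.88, 6.56 and 5.27 CPM in shMUC1 libraries. Most of the difference in the sum without RN7SL1 came from this 1 gene. That sum therefore does not show a general fall of untailed RNAs. SCARNA5 was higher (0.58, adjusted p = 0.00242; edgeR). RNU1-1 was called higher (0.86, adjusted p = 0.00114; edgeR), but it had 275 counts in shMUC1 replicate 1 against 73 to 106 in the other 5 libraries, and its log2 fold change was 0.34 without that library (adjusted p = 0.195, range over 14 alternatives 1.44e-06 to 0.195). The part of carry-over of untailed RNA in the histone values was not tested.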

How the data were processed

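The table deposited by the authors holds unnormalized counts for each gene symbol in each library, and replicates were not pooled. RNA had been prepared with the TruSeq Stranded mRNA kit. The submitters' processing notes name CASAVA 1.8.2, STAR 2.7.9a, featureCounts, DESeq2 1.24.0 and GRCh38.p7. The annotation release, strand setting and handling of multiply mapped reads are not given in the sources used here. Of values from 1 to 20, 69.9% were even, so halved counts were also tried.

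Histone symbols were matched to GENCODE 29 for gene type, position and model, and to RefSeq (GRCh38.p14) for promoters. A gene was called near-identical when at least 50% of its 50-base words stood in another gene. The histone genes, the lists and the rule for named genes were chosen with earlier results of these data known. Named were MUC1, the 4 RD genes of each type with the most counts, variants averaging 100 counts or more, the 4 largest rises and falls among members averaging 50 counts or more, the 3 called genes of each list with the largest change among those averaging 100 counts or more, and SLBP and NPAT. HIST1H1A, HIST1H2AH and a few others outside the rule were named after their values were seen.

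Groups were compared in edgeR 4.0.16 (R 4.3.3) by its quasi-likelihood test (TMM scaling, filterByExpr, group as the only term, two-sided, Benjamini-Hochberg adjustment over 15355 genes) and the script was tested on simulated data. SE was derived from the F statistic. Class totals summed all members and had no test. Replicate numbers did not pair the libraries, as deviations of same-numbered libraries correlated at 0.0049, -0.0324 and -0.0382. Labels describe cultures in triplicate, and p-values cover the spread between these libraries. Replicate pairs differed by 2.79 to 5.55 chi-square per degree of freedom. Floors cover counting error only. Alternatives were DESeq2 1.42.0 as the test, its size factors in edgeR, library totals in place of TMM, limma-voom (limma 3.58.1), all genes unfiltered, genes averaging 50 counts or more, a replicate block, halved counts, each library left out in turn, near-identical copies left out, and the member with the highest mean count left out. Python 3.11.15, pandas 2.3.3 and matplotlib 3.10.9 were used.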

Additional observations from a re-analysis of the deposited data

How the results depend on the processing

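The number of RD genes called lower was 41 and stayed between 39 and 43 under each other scaling, filter, test or block, with halved counts and with each library left out. It was 37 among the 47 tested RD genes without a near-identical copy. Class totals kept their sign in every alternative except that of H3.3. With the replicate block, 41 RD genes were lower and 2 higher, and 4 variants were lower and 2 higher, as without it; the numbers do not pair the libraries. With 1 library left out in turn, 1 to 2 RD genes were called higher (1 without control replicate 2) and 0 to 2 variants (0 without control replicate 2 or shMUC1 replicate 1, 1 without control replicate 3 or shMUC1 replicate 2). The lists gave 1 to 2 higher for RNAs without poly(A) tails (1 without shMUC1 replicate 1), 0 to 1 lower for histone gene transcription (0 without control replicate 1 or shMUC1 replicate 2) and 1 to 3 lower for histone mRNA processing and decay (1 without control replicate 2 or shMUC1 replicate 3). Variants called higher were 1 with library totals only, 1 when genes had to average 50 counts and 1 with DESeq2. RNAs without poly(A) tails called higher were 1 with DESeq2. Without a low-count filter 0 genes of histone gene transcription were lower. Genes of histone mRNA processing and decay called lower were 5 with library totals only and 5 when genes had to average 50 counts.

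With library totals only, log2 ratios were -0.20 for all variants, -0.067 for H2A variants and -0.63 for H1 variants. Leaving out the member with the highest mean count gave -0.12 for all variants, -0.45 for H1, -0.29 for H2A, -0.062 for H2A variants, 0.028 for H3.3, -0.52 for H1 variants and 0.865 for the ratio of RD to variant counts. Signs turned in leave-one-out fits for genes close to 0, whose log2 fold changes ran from -0.046 (without shMUC1 replicate 3) to 0.027 (without control replicate 1) for HIST1H2AC, from -0.23 (without shMUC1 replicate 1) to 0.058 (without control replicate 1) for HIST1H2AG, from -0.31 (without control replicate 3) to 0.23 (without shMUC1 replicate 1) for HIST2H2BE, from -0.031 (without shMUC1 replicate 2) to 0.0050 (without shMUC1 replicate 3) for H2AFV, and from -0.0063 (without control replicate 2) to 0.047 (without shMUC1 replicate 2) for H3F3A. Of 35 histone genes named by the rule, 24 kept their sign and their side of the threshold in all alternatives run. The causes of these changes were not tested. At this depth, genes with a few counts, such as HIST1H1A, have wide errors.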
